A study of Glycine max with 12 samples.

Results

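Vegetative storage proteins are leaf proteins of soybean that hold amino acids for later use. A soybean gene matched to them, VSP1 (Glyma08g21390), was followed here through 4 field seasons of a study of weeds in soybean (Glycine max). The members were the entries of the deposited expression table that are named VSP1 or VSP2, or that are matched to the Arabidopsis loci AT5G24780 or AT5G24770. Of 30498 entries, 1 met this rule, Glyma08g21390, which the table names VSP1, matches to AT5G24780 and annotates as an acid phosphatase of the HAD superfamily, subfamily IIIB. The rule would have kept the entries of highest mean level had too many matched, but no entry was trimmed, so members were chosen by name and locus and by no measured value. The gene was nevertheless singled out with earlier results of these data known, and the p-values below do not account for that choice. The name is that of the Arabidopsis match. The table does not say whether the gene encodes VSPA or VSPB, the named soybean storage proteins, or neither.

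In soybean, vegetative storage proteins fill the vacuoles of the paraveinal mesophyll, a cell layer that spans the veins of the leaf, and of bundle sheath cells. They build up when nitrogen is plentiful or when pods are removed, and they are broken down when growing organs need amino acids. Their transcripts are abundant in young growing tissue and are known to increase with wounding, water deficit and jasmonate, the lipid hormone of the wound response. In Arabidopsis, VSP1 and VSP2 are standard markers of jasmonate signalling through the receptor COI1 and the factor MYC2. Phosphate supply also acts on the soybean genes, whose products belong to a family of acid phosphatases.

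Leaves came from the cultivar AG1631 at the V3 stage, grown in the field near Brookings, and each of the 12 libraries was made from young trifoliate leaves pooled over the plants of 1 plot. Weedy and control plots had 6 libraries each, 1 per treatment in 2008 and in 2009 and 2 per treatment in 2010 and in 2011. Weedy plots held velvetleaf and buckwheat in 2008 (about 300 weeds per m2) and in 2009 (about 48 per m2), flax in 2010 (about 600 per m2), and velvetleaf with common sunflower in 2011 (about 160 per m2). Herbicides kept the control plots free of weeds. They were S-metolachlor for 2008, sethoxydim for 2009 and glyphosate for 2010. The 2011 controls had glyphosate, S-metolachlor, sethoxydim and imazethapyr. The 2009 spray is dated after the sampling date in the labels. Herbicide and the absence of weeds cannot be told apart, nor can season, sampling date, weather and weed species. Sampling fell on June 23, 25, 22 and 29 in the 4 seasons, with 12.4, 9.9, 19.4 and 24.2 cm of cumulative rain and 23.9, 27.2, 25.6 and 26.1 °C. The plots of 2008 and 2009 and replicate 1 of 2010 and 2011 stood in rows 76 cm apart, and replicate 2 of 2010 and 2011 in rows 18 cm apart. The table names its columns row and drill, which were read as 76 cm and 18 cm. This reading is an inference, and it decides which 2010 or 2011 value belongs to which spacing and pair.

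Values are log2 FPKM, where FPKM counts sequenced fragments per length of transcript and per size of the library. The sorted values were identical in all 12 libraries, from 0 to 13.50 with a median of 3.22, so a level also states the gene's rank within its library. Read counts and depth were not given, so no counting interval can be attached. No library can stand apart in its overall distribution on this scale, and a change in total RNA cannot be seen. The labels say that the second read file of weedy 2011 replicate 2 was corrupt. The limma differences of VSP1 that rest on that library are given with and without it, as are some of those of 4 related genes. The permutation tests were run with it only. The labels call the samples biological replicates, but plots of 1 season shared a field and a sampling day.

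VSP1 was at a low level in both plots of 2008 and was among the most abundant transcripts in all 10 libraries of the later seasons. In 2008 it measured 2.32 in the control plot and 1.60 in the weedy plot (log2 FPKM), ranks 22235 and 26771 of 30498 from the highest. In 2009 it measured 9.48 in the control plot and 10.04 in the weedy plot, ranks 68 and 32. In 2010 the control plots measured 8.02 and 8.09 and the weedy plots 8.18 and 10.04, replicate 1 first. The latter value is the same as that of weedy 2009, since both libraries held the gene at rank 32 of the shared scale. In 2011 the control plots measured 8.27 and 8.88 and the weedy plots 7.42 and 6.42, where 6.42 is rank 1450. The 2 libraries of 2008 lay below each of the other 10, whose values ran from 6.42 to 10.04, and nothing lay between 2.32 and 6.42. Taken out of the log, the 2008 levels were 5.0 and 3.03 FPKM and the highest later level was 1056 FPKM. Fewer cells that express the gene and less of its RNA per cell cannot be told apart in whole leaves.

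**Figure D1:**
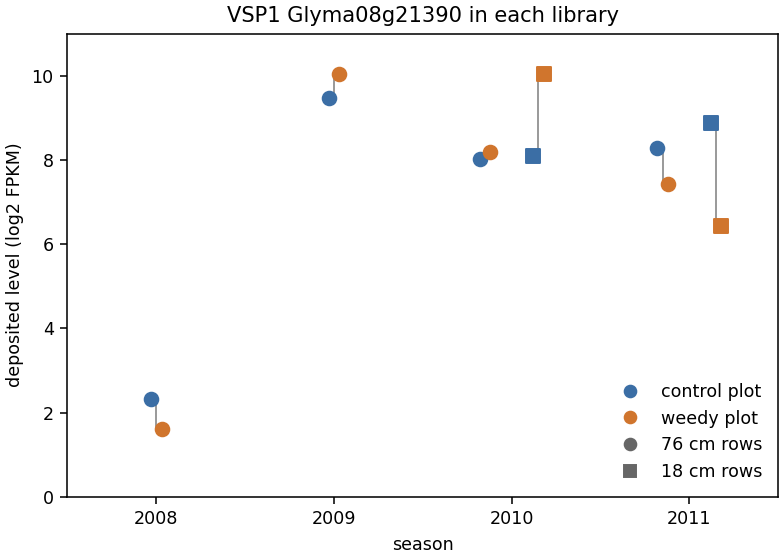
Deposited level of VSP1 (Glyma08g21390) in log2 FPKM (vertical axis) by season (horizontal axis), 1 point per library, blue for control and orange for weedy plots, circles for 76 cm and squares for 18 cm rows, with a line joining the plots of a pair. Both 2008 points, 2.32 and 1.60, lie below all later points, which span 6.42 to 10.04.

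Season means were 1.96 ± 0.51 (SD, n = 2) in 2008, 9.76 ± 0.40 (n = 2) in 2009, 8.58 ± 0.98 (n = 4) in 2010 and 7.75 ± 1.07 (n = 4) in 2011. With limma, fitted across 30456 genes with treatment as a covariate and Benjamini-Hochberg adjustment, VSP1 rose by 7.80 ± 0.81 (SE) log2 units from 2008 to 2009. That is 223-fold, with a 95% interval of 64.6 to 771-fold and an adjusted p of 0.000116. From 2008 to 2010 it rose by 6.62 ± 0.70, or 98.4-fold (33.6 to 288), with an adjusted p of 4.77e-05. From 2008 to 2011 it rose by 5.79 ± 0.70, or 55.2-fold (18.9 to 162), with an adjusted p of 0.000171. Seasons differed widely in all genes: 43.8%, 55.5% and 41.1% of genes were called at an adjusted p under 0.05 in these 3 comparisons, so a call by itself says little about VSP1. Its size was less usual, since 1 gene rose more in 2009 and in 2010 and 2 genes rose more in 2011. The limma F test for any season difference gave F = 39.2 (adjusted p = 0.000135), with 67.1% of genes called. In control libraries alone the rises were 7.16, 5.73 and 6.26 log2 units, each called. Without weedy 2011 replicate 2, the library with the corrupt file, the rise from 2008 to 2011 was 6.24 and still called (limma adjusted p = 0.000163).

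**Figure D2:**
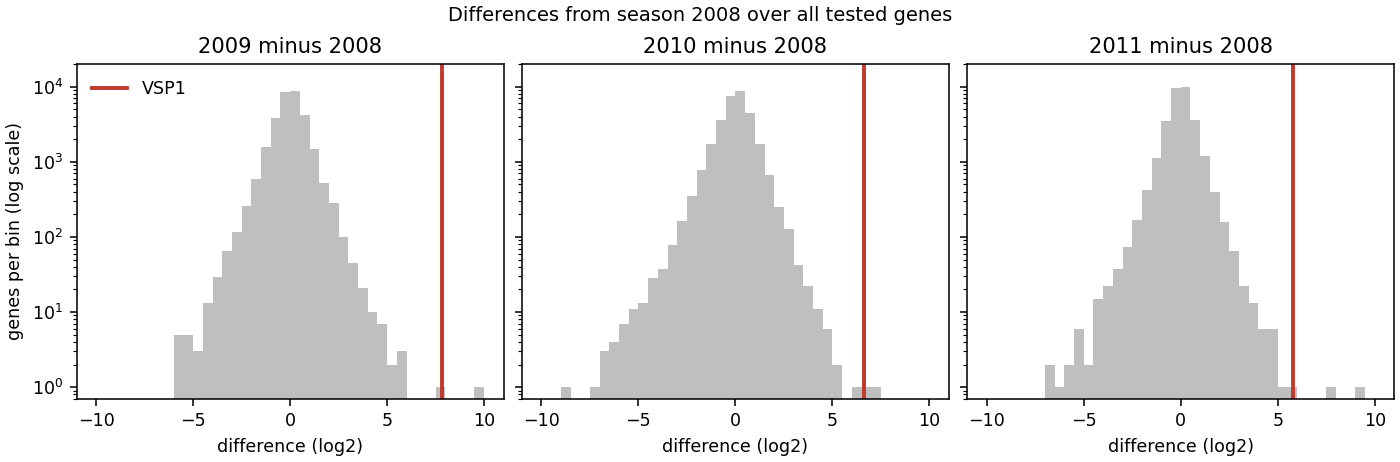
Number of genes (vertical axis, log scale) by log2 difference from season 2008 (horizontal axis) for 2009, 2010 and 2011, over all 30456 tested genes, with VSP1 as a red line. VSP1, at 7.80, 6.62 and 5.79, lies in the right-hand tail of each distribution.

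In the order of the season means, 2009 was followed by 2010, 2011 and 2008. The plots of 2008 and 2009 stood in 76 cm rows only, and spacing was not a term of the season fit. Differences of 2010 and 2011 from those seasons thus mix spacing with season. Neighbours among the 3 later seasons were not separated by the test. The difference of 2010 from 2009 was -1.18 ± 0.70 (95% interval -2.73 to 0.37; limma adjusted p = 0.363; 1.74% of genes called). The difference of 2011 from 2010 was -0.83 ± 0.57 (-2.10 to 0.43; limma adjusted p = 0.265; 41.2% called), and in control libraries alone it had the other sign, 0.53. Without weedy 2011 replicate 2 it was -0.38. The ends of this order, 2011 against 2009, differed by -2.01 ± 0.70 (-3.56 to -0.46), short of the threshold with a limma adjusted p of 0.0671 where 19.3% of genes were called. It was called without control 2011 replicate 2 (-2.40, adjusted p = 0.0380) and without weedy 2010 replicate 2 (-2.01, adjusted p = 0.0182), while without weedy 2011 replicate 2 it was -1.56 (adjusted p = 0.146).

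The difference of VSP1 between weedy and control plots had no single direction. Over the 4 seasons the level was 7.51 ± 2.60 (SD, n = 6) in control plots and 7.28 ± 3.13 (n = 6) in weedy plots, and the groups overlapped over nearly their whole range. Without 2008 the means were 8.55 ± 0.62 and 8.42 ± 1.61 (n = 5 each), and the weedy plots held both the highest and the lowest of these 10 values. With season as a covariate the difference, weedy minus control, was -0.23 ± 0.47 log2 units (95% interval -1.26 to 0.81; limma adjusted p = 0.90). Its sign was the opposite without weedy 2011 replicate 2 (0.079), without control 2011 replicate 2 (0.029) and without season 2011 (0.49). An exact two-sided permutation test over the 144 exchanges of labels within seasons, added after the values were seen, gave p = 0.708, with 0.0139 the smallest it allows. No gene was called in this comparison at an adjusted p under 0.05 (0%), while 3293 genes (10.8%) had an unadjusted p under 0.05.

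By plot pair, weedy minus control, VSP1 differed by -0.72 in 2008 and by 0.56 in 2009. In 2010 the 76 cm pair differed by 0.16 and the 18 cm pair by 1.96. In 2011 the 76 cm pair differed by -0.85 and the 18 cm pair by -2.46. The weedy plot was thus the higher in 3 pairs, those of 2009 and 2010, and the lower in 3, those of 2008 and 2011. The pairs in 18 cm rows held both extremes.

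**Figure D3:**
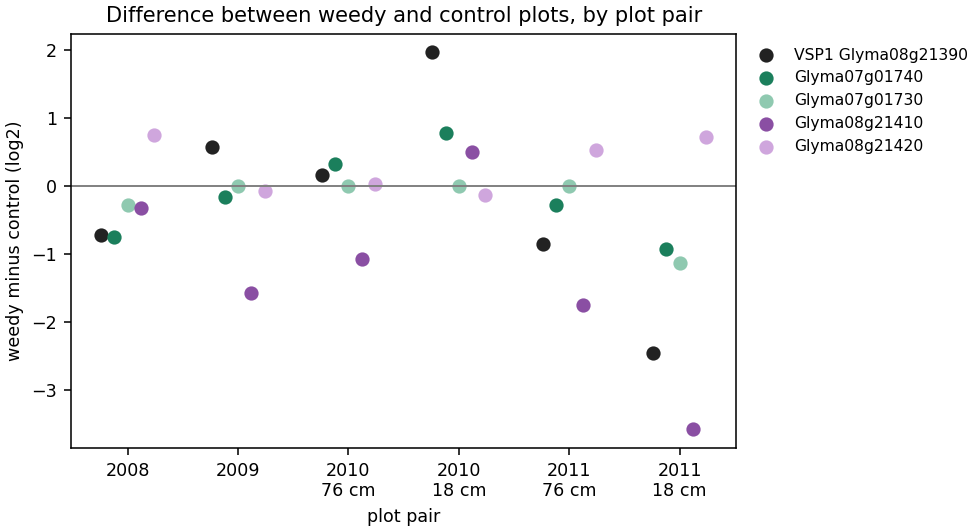
Weedy minus control difference in log2 units (vertical axis) for each of the 6 plot pairs (horizontal axis), 1 point per gene, for VSP1 in black and 4 acid phosphatase genes of its class in colour. VSP1 lies above 0 in 2009 and in both pairs of 2010 and below 0 in 2008 and in both pairs of 2011, from 1.96 to -2.46.

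Within 2010, among flax, VSP1 measured 8.05 ± 0.05 (SD, n = 2) in control and 9.11 ± 1.32 (n = 2) in weedy plots. Both weedy libraries lay above both controls, by a difference of 1.06 ± 0.59 (SE; 95% interval -0.33 to 2.45) with a limma adjusted p of 0.615. Replicate 2 of the weedy plots carried most of it, and without that library the difference was 0.13. Within 2011, among velvetleaf and sunflower, it measured 8.58 ± 0.43 (n = 2) in control and 6.92 ± 0.71 (n = 2) in weedy plots. Both weedy libraries lay below both controls, and the weedy level was 3.16-fold lower, a difference of -1.66 ± 0.59 (-3.04 to -0.27). This had an unadjusted p of 0.0252 by limma and missed the threshold after adjustment (0.336). Without the library whose second read file was corrupt it was -1.16, and without weedy 2011 replicate 1 it was -2.16. In both seasons 0% of genes were called at the adjusted threshold, and 8.64% (2010) and 12% (2011) had an unadjusted p under 0.05, as VSP1 did in 2011.

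The authors' deposited table holds its own test of the same contrast, made with Cuffdiff within a season. For VSP1 the authors' deposited table gives log2 ratios of -0.72, 0.56, 1.06 and -1.66 for 2008 to 2011. For 2010 the authors' deposited table gives a p-value of 0.0490 and a q-value of 0.447. For 2011 the authors' deposited table gives a p-value of 8.53e-08 and a q-value of 7.69e-06. The 2011 contrast thus passed a threshold of 0.05 in the deposited test and missed it in the limma fit on the deposited levels. That fit took its spread from the 8 libraries of 2010 and 2011 together, so the tests did not rest on the same libraries.

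The weed effect of 2011 was lower than that of 2010 by 2.72 log2 units, an interaction of -2.72 ± 0.84 (95% interval -4.68 to -0.76). It ranked 14 from the lowest of 30456 genes and had an unadjusted p of 0.0133 by limma, but its adjusted p was 0.296, and 0% of genes were called (13.7% at an unadjusted p under 0.05). Without weedy 2010 replicate 1 it was -3.65 (adjusted p = 0.0527), without weedy 2010 replicate 2 it was -1.78 (adjusted p = 0.323), and without weedy 2011 replicate 2 it was -2.22 (adjusted p = 0.556).

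Row spacing showed no steady difference. The 18 cm plot minus the 76 cm plot was 0.07 in control 2010, 1.87 in weedy 2010, 0.61 in control 2011 and -1.0 in weedy 2011. Averaged over these with season and treatment in the fit it was 0.38 ± 0.64 (95% interval -1.12 to 1.89; limma adjusted p = 0.961). The weed effect in narrow rows minus that in wide rows was 0.095 ± 1.4 (-3.31 to 3.5; limma adjusted p = 1.00). In both comparisons 0% of genes were called, with 5.63% and 2.05% at an unadjusted p under 0.05, and the wide intervals leave differences of several fold in either direction unresolved. Without weedy 2011 replicate 2 they were 1.07 and 1.96 (adjusted p = 0.712 and 0.581). Spacing and replicate number were the same split.

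The table lists 15 other genes matched to Arabidopsis acid phosphatases of this class. Of these 15 genes, 5 rose and 0 fell from 2008 to 2009, and the same counts held for 2010 and for 2011, where 22%, 29.5% and 21.9% of all genes were called higher. In 2010 this share of the class, 5 of 15, was near that of all genes. With 1 library left out, the counts were lowest without weedy 2008 for 2009 and 2011 and without control 2008 for 2010. Each of these fits leaves 1 library of 2008, and without weedy 2008 fewer of all genes were called too. The 3 genes that rose in each of these comparisons were Glyma08g21420, Glyma07g01740 and Glyma07g01730. The median differences of the 15 were 0.58, 0.14 and 0.39 log2 units, against 0.01, 0.04 and 0.01 over all genes. For weeds over 4 seasons 0 of the 15 were called, and 3 had an unadjusted p under 0.05, against 10.8% of all genes. The 2 class genes of smallest p in that comparison were Glyma15g14180, at -0.37 ± 0.10 (SE), and Glyma07g15110, at -0.25 ± 0.07, each with a limma adjusted p of 0.228 and each lower in the weedy plot of 6 of 6 pairs.

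The table numbers 4 of these genes close to VSP1 or to each other, all matched to AT4G25150. They were picked for description after their values were seen. How the authors' counting shared reads among near-identical copies is not stated in the labels or the file header, and no sequence of these genes was at hand, so part of a level may come from a copy. Glyma07g01730 stood at the highest value of the whole table, 13.50, in 9 libraries, so a higher level could not have shown in these. It measured 12.37 and 12.08 in control and weedy 2008 and 12.37 in weedy 2011 replicate 2. It rose from 2008 by 1.27, 1.27 and 0.99 log2 units (limma adjusted p = 0.0127, 0.00439 and 0.0218). The calls for 2009 and 2011 were lost without either 2008 library (adjusted p 0.0609 and 0.0737 for 2009, 0.115 and 0.129 for 2011). The first was also lost without weedy 2009 (0.0820) and the second without control 2011 replicate 1 (0.0568).

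Glyma07g01740 came closest to VSP1 in pattern within the class. It measured 7.73 and 6.98 in control and weedy 2008, 10.12 and 9.95 in 2009, 9.83 and 9.73 against 10.16 and 10.51 in 2010, and 9.32 and 9.66 against 9.02 and 8.72 in 2011, control first. As for VSP1, both weedy libraries lay above the controls in 2010 and below them in 2011. It rose from 2008 by 2.68, 2.70 and 1.82 log2 units (limma adjusted p = 0.000332, 6.53e-05 and 0.00106), and it fell from 2010 to 2011 by 0.88 (adjusted p = 0.0170; 20.7% of all genes were called lower), a call lost without weedy 2011 replicate 2 (-0.74, adjusted p = 0.0549). The difference between its weed effects of 2011 and 2010 was -1.17 ± 0.28 (SE; limma adjusted p = 0.279), and without that library -1.01. Its Pearson r with VSP1 was 0.958 over the 12 libraries and 0.865 after the mean of each season was subtracted (0.960 and 0.817 without that library), a description over libraries that share seasons and 1 scale.

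Glyma08g21420 and Glyma08g21410, the entries numbered closest to VSP1, differed from it in other ways. Glyma08g21420 measured 4.57 and 5.32 in control and weedy 2008, and between 6.92 and 7.91 in all later libraries. It rose by 2.29, 2.06 and 2.51 log2 units (limma adjusted p = 0.000166, 5.33e-05 and 3.09e-05), but in 2011 its weedy libraries, 7.91 and 7.63, lay above its controls, 7.38 and 6.92. Its r with VSP1 was 0.790 over the 12 libraries and -0.578 within seasons, and 0.853 and -0.572 without weedy 2011 replicate 2. Glyma08g21410 was already at 10.59 and 10.26 in 2008, and its differences from 2008 of -0.08, -1.07 and 0.11 were not called. In 2011 it measured 11.66 and 12.08 in control and 9.91 and 8.50 in weedy plots, a gap of -2.67 ± 0.51 (SE; limma adjusted p = 0.191) on the same side as that of VSP1. Without weedy 2011 replicate 2 the gap was -1.97. Over 4 seasons its weedy minus control difference was -1.30 ± 0.42 (limma adjusted p = 0.306), lower in 5 of 6 pairs, and -0.96 without that library. The authors' deposited table gives q-values for 2011 of 0.0153 for Glyma08g21420 and 0.0872 for Glyma08g21410.

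**Figure D4:**
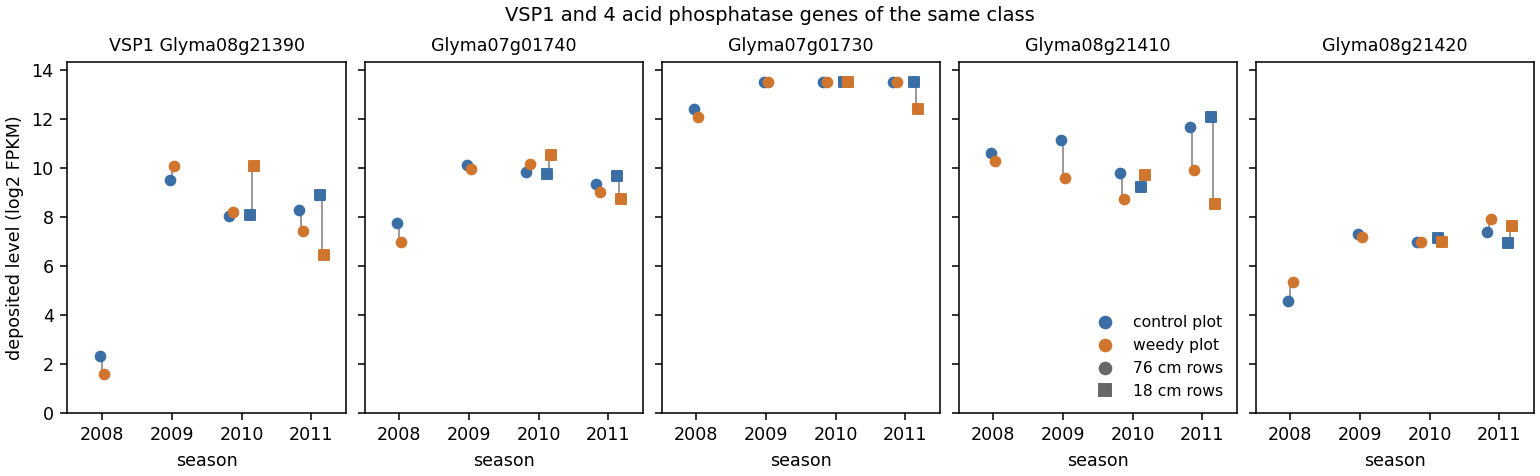
Deposited level in log2 FPKM (vertical axis) by season (horizontal axis) for VSP1 and 4 acid phosphatase genes of the same class, 1 point per library with symbols for treatment and row spacing, lines joining plot pairs. VSP1 spans 1.60 to 10.04, while Glyma07g01730 stays between 12.08 and the table's top value of 13.50.

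The ratio of VSP1 to each of these genes was compared directly, in 8 exact two-sided permutation tests added after the values were seen and adjusted over the 8. The 2 tests of Glyma07g01730 are counted in the 8 but are not reported, since that gene stood at the table's top value in 9 of the 10 later libraries. In log2 units, the ratio in 2008 minus that in the later seasons was -6.92 for Glyma08g21410, -4.24 for Glyma08g21420 and -4.18 for Glyma07g01740. The 2 libraries of 2008 lay below the other 10 for each of these 3 ratios, as the levels already showed. The permutation p was 0.0152, the smallest that 66 arrangements allow, with an adjusted p of 0.0303. This outcome was fixed before the test, which adds no support to the values. These arrangements treat libraries of 1 season as independent, and 2008 was set apart after its values were seen. The weedy minus control ratio within seasons was 1.08 for Glyma08g21410 (exact permutation p = 0.0278, adjusted p = 0.0444). It was -0.52 for Glyma08g21420 and -0.051 for Glyma07g01740, with adjusted permutation p-values of 0.593 and 1. The adjusted permutation p of 0.0444 was taken over all 8 tests. The 2008 tests among them, whose outcome was fixed beforehand, lowered it, so it is not read as a weed effect. Without weedy 2011 replicate 2 the 3 weedy minus control ratios, not tested, were 1.04, -0.21 and 0.16.

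Outside its class, the 5 genes whose levels followed VSP1 most closely over the 12 libraries had Pearson r values from 0.982 to 0.991. They were Glyma18g03110 (a phosphoinositide-specific phospholipase C, r = 0.991), Glyma08g12220 (GRF9, a 14-3-3 protein, 0.985), Glyma14g04940 (a glycosyl hydrolase, 0.983), Glyma13g26960 (annexin 8, 0.982) and Glyma02g39440 (BAG4, a co-chaperone, 0.982). None moved as far as VSP1. Glyma18g03110 went from a mean of 1.21 in 2008 to 3.77, 3.55 and 3.12 in the later seasons. A high r is common here, since 931 of 30455 genes passed 0.9.

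With season means subtracted, the closest genes were Glyma17g05800 (AtGRF5, a growth-regulating factor, r = 0.986), Glyma12g01530 (a PLAC8 family protein, 0.980), Glyma13g43050 (PAP1, phytochrome-associated protein 1, 0.973), Glyma18g45250 (BEN1, 0.972) and Glyma09g01870 (CBL2, a calcium sensor, 0.970). For Glyma13g43050 the means were 4.64 in control and 5.30 in weedy plots of 2010, and 3.76 and 2.76 in 2011. Within seasons 171 of 30455 genes had an r above 0.9, and in each of these rankings the same 12 libraries were used. Weedy 2011 replicate 2, the library with the corrupt file, was among them, and the rankings were not rerun without it.

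Jasmonate genes were counted as the hormone pathway VSP1 is known for. Of 40 genes of jasmonate synthesis, 15 rose and 3 fell from 2008 to 2009, 15 rose and 7 fell to 2010, and 24 rose and 5 fell to 2011, with medians of 0.58, 0.28 and 0.66 log2 units. Of all genes, 22%, 29.5% and 21.9% were called higher and 21.8%, 26% and 19.2% lower. Without control 2008 fewer rose to 2011, and without weedy 2008 fewer fell to 2010, which each leave 1 library of that season. Fewer of all genes were called in these fits too. Glyma02g06070, matched to the methyltransferase JMT and named for its size of change, rose by 3.95, 3.39 and 4.94 (limma adjusted p = 8.6e-05, 3.1e-05 and 7e-06). The lowest differences of the 40 were those of Glyma20g11610, at -1.74, -2.14 and -1.72. For weeds over 4 seasons 0 of the 40 were called and 10 had an unadjusted p under 0.05, where 10.8% of all genes did. The acyl-CoA oxidases ACX5 (Glyma14g14990) and ACX1 (Glyma11g03800), which shorten the jasmonate precursor, differed by -0.40 ± 0.07 and -0.34 ± 0.09 (SE; limma adjusted p = 0.101 and 0.228). The most abundant members, Glyma11g13870 (LOX2 match, a lipoxygenase) and Glyma20g01180 (PKT3, a thiolase), differed by 0.04 and -0.19.

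Of 31 genes of jasmonate perception and repression, 10 rose and 3 fell from 2008 to 2009, 12 rose and 6 fell to 2010, and 14 rose and 2 fell to 2011 (medians 0.25, 0.25 and 0.27). Shares of all genes were 22%, 29.5% and 21.9% higher and 21.8%, 26% and 19.2% lower. In control libraries alone, with 1 library of 2008, fewer of the list rose in each comparison, and fewer of all genes were called. The same held without control 2008 for the rises to 2009 and to 2011. JAZ proteins repress MYC2, and their own genes are known targets of jasmonate signalling. Glyma11g04130 (JAZ1, named for its size of change) rose by 2.48, 2.81 and 2.28 log2 units (limma adjusted p = 0.00332, 0.00043 and 0.0025). Not all JAZ entries rose. The JAZ3 matches Glyma09g30460 and Glyma08g04770 differed by -0.79, -0.72 and -0.31 and by -0.64, -0.69 and -0.49. Another JAZ1 match, Glyma17g05540, differed by 0.33, 0.46 and -0.07, none called. For weeds 0 of the 31 were called and 6 had an unadjusted p under 0.05 (10.8% of all genes). The 2 of smallest p, Glyma01g41290 (TIFY10B, the JAZ2 match) and Glyma17g05540 (JAZ1), differed by -0.99 ± 0.33 and -0.45 ± 0.16 (SE; limma adjusted p = 0.330 and 0.368). The 2 most abundant, both JAZ12 matches, differed by -0.10 (Glyma09g09100) and -0.30 (Glyma17g04850).

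Genes of leaf nitrogen assimilation were lower in each later season than in 2008, where VSP1 was higher. Of 10 genes, 10 fell from 2008 to 2009, 10 fell to 2010 and 7 fell to 2011, with none higher and medians of -1.85, -2.11 and -0.93 log2 units, against 21.8%, 26% and 19.2% of all genes called lower. Without weedy 2008, which leaves 1 library of that season, fewer fell to 2011, and fewer of all genes were called. From 2009 to 2010, 0 of 10 were called, where 1.74% of all genes were. Differences were below 0 for 9 of 10 and for VSP1, none of them called. From 2010 to 2011, 10 of 10 rose (20.5% of all genes). In control libraries alone 4 of 10 rose, and calls over all genes in either direction fell from 12538 to 4320. The nitrite reductase genes NIR1 (Glyma02g14910 and Glyma07g33570) fell from 2008 to 2010 by 3.33 and 3.14 log2 units. Their weedy minus control differences over 4 seasons were -1.12 and -1.22 (limma adjusted p = 0.264 and 0.228), and these were called without the 2008 libraries, at -1.53 and -1.61. The chloroplast glutamine synthetase genes GS2 (Glyma13g28180 and Glyma15g10890) differed between weedy and control plots by 0.14 and 0.10.

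Of 14 phosphate starvation genes, 0 rose and 8 fell from 2008 to 2009, 1 rose and 6 fell to 2010, and 3 rose and 2 fell to 2011 (medians -1.15, -0.96 and 0.29 log2 units). Of all genes, 22%, 29.5% and 21.9% were called higher and 21.8%, 26% and 19.2% lower. Without weedy 2008 fewer fell to 2009 and to 2010, and without control 2008 fewer rose to 2011. Each of these fits leaves 1 library of 2008, and fewer of all genes were called in them too. From 2010 to 2011, 11 rose and 0 fell (20.5% and 20.7% of all genes). In control libraries alone, with 1 library of 2008, fewer of the list fell from 2008, and fewer of all genes were called. From 2010 to 2011, 2 rose in control libraries alone, and calls over all genes in either direction fell from 12538 to 4320. An entry of the phosphate transporter gene ATPT2 (Glyma10g33020) fell from 2008 by 2.06, 1.83 and 1.52. Another, Glyma20g34620, differed from 2008 by -1.32, -0.85 and 0.05. For weeds 0 of 14 were called. The ATPT2 entry Glyma10g33020 was higher in the weedy plot of 6 of 6 pairs, by 0.28 ± 0.10 (SE, limma adjusted p = 0.357). The ATPT2 entry Glyma20g34620 differed by -0.035. The sulfolipid synthesis genes SQD1 (Glyma03g28690 and Glyma19g31430) and SQD2 (Glyma01g27840), which spare phosphate in membranes, differed by -0.28, -0.22 and 0.12.

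**Figure D5:**
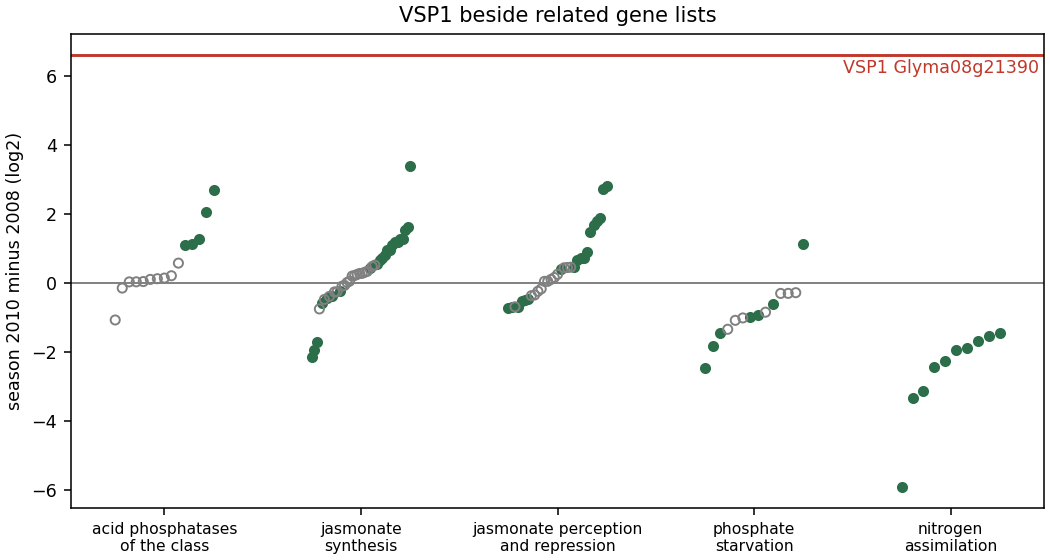
Season 2010 minus 2008 difference in log2 units (vertical axis), 1 point per gene, for 5 gene lists (horizontal axis, genes sorted within a list), filled where the limma adjusted p was under 0.05 and open where not. VSP1, the red line at 6.62, lies above each gene of the 5 lists, and each of the 10 nitrogen assimilation genes lies below 0.

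The tissue label was checked against markers. The 14 green leaf markers, Rubisco small subunit and light-harvesting genes, were detected in each library, with summed levels of 16949 to 34380 FPKM in control and 10582 to 35446 FPKM in weedy plots. Their sums were highest in 2008, at 34380 and 35446, where VSP1 was lowest. Of the 14, 4 fell from 2008 to 2009, 12 fell to 2010, and 1 rose and 1 fell to 2011. Of all genes, 21.8%, 26% and 19.2% were called lower, and 21.9% were called higher in 2011. In control libraries alone, with 1 library of 2008, fewer of the 14 fell to 2010, but more fell to 2009 and to 2011. Fewer of all genes were called there in each comparison. Without either 2008 library fewer markers fell to 2010, and without weedy 2008 or control 2009 fewer fell to 2009. Without weedy 2008 fewer of all genes were called as well. In 2009 the marker sums were 20070 FPKM in control and 26549 in weedy plots. In 2010 they were 16949 to 19466 FPKM in control and 10582 to 12823 in weedy plots, and in 2011 they were 19038 to 23030 and 29351 to 33544. In 2009 both these sums and VSP1 were higher in the weedy plot. In 2010 the sums were lower and VSP1 higher in weedy plots, and in 2011 the sums were higher and VSP1 lower. Their median weedy minus control difference in 2011 was 0.91 log2 units, with 0 of 14 called and 11 at an unadjusted p under 0.05 (12% of all genes).

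The 12 vascular wall markers, cellulose synthases of the secondary wall, summed to 93.9 and 89.7 FPKM in control and weedy 2008 and to 78.5 to 207 in later libraries, with none at 0. In 2009 they summed to 166 FPKM in the control and 125 in the weedy plot, where VSP1 was higher, and in 2010 to 112 to 127.5 and 103 to 153, which overlapped. In 2011 they summed to 110 to 207 FPKM in control and 78.5 to 100 in weedy plots, where VSP1 was lower. Their median weedy minus control difference in 2011 was -0.73 log2 units, with 0 of 12 called. Of the 12, 6 had an unadjusted p under 0.05 by limma (12% of all genes). From 2008, 6 rose and 4 fell to 2009, 5 rose and 6 fell to 2010, and 1 rose and 0 fell to 2011. Of all genes, 22%, 29.5% and 21.9% were called higher and 21.8%, 26% and 19.2% lower. In control libraries alone, with 1 library of 2008, fewer of the 12 markers rose from 2008, and fewer of all genes were called. No entry matched the seed storage markers. The part of leaf age or tissue makeup in the VSP1 values was not tested.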

How the data were processed

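Young leaf RNA from 12 field plots was sequenced as paired ends from TruSeq libraries on a HiSeq2000, per the labels' protocols. Reads were processed with TopHat, Cufflinks and Cuffdiff, each listed as version 1.0, per the submitters' processing notes, and the file header names annotation from Phytozome 9.0. No source used here states a genome build, and no coordinates are printed. The deposited values are log2 FPKM per the file headers. Their sorted values are identical in all 12 columns, by a step that is not stated. The authors also deposited log2 ratios and Cuffdiff p-values and q-values per the file headers, which were copied and not recomputed, except that the log2 ratios were checked against the library columns.

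From the deposited levels, 39 entries that share 19 identifiers were left out, and a gene was kept where 3 or more libraries had log2 at or above 1, which removed 3 genes and left 30456. Differences were tested with limma 3.58.1 (R 4.3.3), with trend and robust options, two-sided, with Benjamini-Hochberg adjustment over all genes and a threshold of 0.05. The fit of 4 seasons used all 12 libraries with season and treatment as terms. Fits within 2010 and 2011, and of row spacing, used those 8 libraries. The procedure was tested on simulated data. Gene lists were matched by the Arabidopsis locus of the table. The members and lists were chosen with earlier results of these data known. From each list, the 2 genes of smallest p for weeds over 4 seasons and the 2 of highest mean level were named, and for likeness the 5 genes of highest Pearson r. Alternatives were other filters, another number added before the log, plain moderation, left-out libraries and seasons, control libraries alone and plot pairs as a block. No sequence was used.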

Additional observations from a re-analysis of the deposited data

Results flagged for a closer look

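Values were examined in 64 groups of 4 or 6. These held the control, the weedy, the 2010 or the 2011 libraries, for each of VSP1 and the 15 other genes of its class. In them 11 samples stood apart from the rest of their group. The control and weedy groups span the 4 seasons, so their flags of 2008 libraries repeat the season difference. No chance rate is therefore set beside the 11. VSP1 itself was flagged for control 2008, at 2.32 log2 FPKM, 5.70 below the nearest of the other 5 control libraries in a range of 7.16. It was flagged again for weedy 2010 replicate 2, at 10.04, which was 1.87 above the nearest of the other 3 libraries of its season in a range of 2.03.

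In the same class, the 2008 libraries were low for Glyma08g21420 (4.57 in control and 5.32 in weedy), for Glyma07g01740 (7.73 in control) and for Glyma07g01730 (12.37 in control). Glyma07g01730 was also low in weedy 2011 replicate 2, at 12.37, while the other libraries of that season were tied at the table's top value. Weedy 2010 replicate 2 was high for Glyma11g34870 (2.22) and Glyma19g35090 (4.15), and control 2011 replicate 2 was high for Glyma03g32360 (4.50). Glyma14g06790 stood apart in control 2011 replicate 1, at 3.0.

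The weed effects of 2010 and 2011 had opposite signs in both plots for 3 genes. For VSP1 the effect was 1.06 log2 units in 2010 and -1.66 in 2011, a difference of -2.72 (limma adjusted p = 0.296). For Glyma03g32360 it was 0.85 and -0.48, a difference of -1.32 (limma adjusted p = 0.380). For Glyma07g01740 it was 0.55 and -0.61, a difference of -1.17 (limma adjusted p = 0.279). None of the 3 differences passed the threshold.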

How the results depend on the processing

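Of the alternatives run for VSP1, 211 kept the direction and the side of the threshold, 10 reversed the sign of a difference that was not called, and 2 brought a call. The rises from 2008 stayed called in each alternative, and with 1 library left out they ranged from 7.33 to 8.28 (2009), 6.03 to 6.92 (2010) and 5.41 to 6.24 (2011) log2 units, with an F for season of 17.6 to 74.0. With 1 library left out, weedy minus control over 4 seasons ranged from -0.62 to 0.079, and without season 2011 it was 0.49. It ranged from 0.13 to 1.99 in 2010 and from -2.16 to -1.16 in 2011, and the difference between these effects from -3.65 to -1.78. The other ranges were -1.77 to -0.71 for 2010 minus 2009, -2.49 to -1.54 for 2011 minus 2009 and -1.22 to -0.24 for 2011 minus 2010 (0.53 in control libraries alone). Narrow minus wide rows ranged from -0.33 to 1.07 and was -0.20 within 2011, and the weed effect in narrow minus that in wide rows ranged from -1.77 to 1.96.

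Same-numbered plots did not deviate together: the correlation of deviations between control and weedy was -0.048 in 2010 and 0.048 in 2011 over 30456 genes. With the plot pairs as a replicate block, the weed effects of VSP1 stayed at -0.23 (4 seasons, adjusted p = 0.913), 1.06 (2010, adjusted p = 0.687) and -1.66 (2011, adjusted p = 0.40), and the difference between the seasons at -2.72 (adjusted p = 0.392), so no call changed.

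The number of genes called over all genes went from 0 to 24 for weeds over 4 seasons without a 2008 library, and from 0 to 268 (2010) and 273 (2011 minus 2010 effect) without weedy 2010 replicate 1. For 2011 minus 2009 it fell from 5876 to 656 without control 2009, for 2010 minus 2009 it ran from 108 to 859 around 531, for 2011 minus 2008 from 6726 to 13875 around 12514, for 2009 minus 2008 from 8405 to 14679 around 13326, for 2011 minus 2010 it fell from 12538 to 4320 in control libraries alone, and for any season difference from 20431 to 12948 there. Counts within the gene lists left 1.5 times the printed count under 131 alternatives and stayed within it under 877. In control libraries alone, where calls over all genes fell too, 4 rather than 10 nitrogen assimilation genes rose from 2010 to 2011. There, with 1 library of 2008, fewer green leaf markers fell from 2008 to 2010 and fewer genes of jasmonate perception rose from 2008.

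Other sign changes were of small differences that were not called. Glyma08g21410 ranged from -0.66 to 0.50 for 2009 minus 2008 (0.54 in controls alone) and from -0.47 to 0.70 for 2011 minus 2008. In controls alone its 2010 and 2011 differences were called, at -1.09 and 1.28. For weeds over 4 seasons, Glyma07g01740 (0.044), Glyma09g09100 (0.026) and Glyma15g10890 (-0.0088) changed sign without season 2011, and Glyma01g27840 ranged from -0.0067 to 0.22. The Rubisco genes Glyma19g06370 (-0.19 to 0.18 with 1 library left out) and Glyma19g06340 (-0.28 to 0.057 with 1 library left out) were at 0.43 and 0.29 without season 2010. The causes were not tested. Depth is unknown here, and 1 or 2 libraries a group set the precision.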
